A study of Mus musculus with 3 samples.

Results

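Fc receptors bind the constant part of antibodies and pass that contact on to the cell that carries them. The genes described here were chosen by name, not by their values: Fcgr1, Fcgr2b, Fcgr3, Fcgr4, Fcer1g, Fcer1a, Fcrl1, Fcrl5, Fcmr and Fcgrt, 10 of 33696 genes counted. All 10 had UMIs (unique molecular identifiers, each 1 captured RNA molecule) in all 3 libraries. The material was mouse spleen, counted cell by cell with a 5′ kit, in 1 library for each of 3 groups named Chow, MASH and MASH-Phe-free. MASH stands for steatohepatitis with metabolic dysfunction and Phe for phenylalanine, the amino acid of the series title. The sources used here do not give the strain, age, diets or number of pooled animals of the spleens, or whether the mice carried tumours. The series text names C3H mice, a high-fat and then a methionine- and choline-deficient diet, and HCA-1 liver cancer cells, but for bulk RNA of tumours. With 1 library in each group no difference between groups was tested. Every interval in brackets is a 95% interval of counting error only and holds nothing of the spread between animals.

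The 4 Fc gamma receptors of the mouse bind IgG. Fcgr1, Fcgr3 and Fcgr4 encode activating receptors, which need the common gamma chain encoded by Fcer1g to signal. Fcgr2b encodes the inhibitory receptor, which restrains B cells and phagocytes that meet immune complexes. Fcer1a encodes the IgE-binding chain of the high-affinity IgE receptor of basophils and mast cells, and Fcgrt the heavy chain of the neonatal receptor that rescues IgG from breakdown inside cells. Fcrl1 and Fcrl5 belong to the Fc receptor-like family of B cells, and Fcmr encodes a receptor for IgM. In the spleen, red pulp macrophages clear antibody-coated red cells, and marginal zone B cells meet blood-borne antigen.

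After filtering, 15647 Chow, 17330 MASH and 15579 MASH-Phe-free cells were sorted into classes by marker genes, with all Fc receptor genes kept out of the clustering. Of these, 207, 335 and 200 cells stayed unnamed, and 698, 803 and 680 were set aside as mixed (in the same order). Both kinds belong to no class, but their UMIs stayed in the totals behind shares of all UMIs of a gene. Classes are called B-like, macrophage-like and so on because they rest on markers. Levels are UMIs of a gene per 1000000 UMIs of its class in a library (CPM), not scaled by gene length. The classes' own markers summed to 26877, 26384 and 29406 CPM in macrophage-like, 10432, 12015 and 11702 CPM in classical monocyte-like and 6091, 6749 and 7149 CPM in nonclassical monocyte-like cells, with UMIs for every marker. The 12 classes with at least 50 cells in every library were compared. The libraries held 138787602, 152501471 and 160115282 UMIs in Chow, MASH and MASH-Phe-free. Depth differed by class: the median macrophage-like cell had 1046, 1074.5 and 1158 UMIs, and the median classical monocyte-like cell 16633, 18652.5 and 16093.5. The cDC2-like cells (conventional dendritic cells of type 2) differed in depth between libraries, with medians of 2029, 1882.5 and 3359 UMIs. The macrophage-like class kept a shallow part led by Ltf, Ngp and Camp (706, 423 and 680 cells, 4 immature neutrophil markers among its 20 leading genes) and one with 4 megakaryocyte markers (29, 73 and 47 cells). Cell barcodes shared by a pair of libraries numbered 72 (Chow and MASH), 77 (Chow and MASH-Phe-free) and 102 (MASH and MASH-Phe-free). Wherever 3 values are listed below without group names, they are in the order Chow, MASH, MASH-Phe-free.

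The letters before the start site of the 4 Fc gamma receptor genes are shown because the levels of these genes differed between the myeloid classes. Each line gives 250 bases 5′ to 3′ on the gene's strand from RefSeq (GRCm38.p6, not the GRCm39 build of the counts), ending at the base before the annotated start. Capitals mark matches on either strand to the PU-box core GAGGAA and to the ISRE core (in Fcgr4 alone here), which interferon regulatory factors are known to bind. The windows are at chr3:96293970-96294219 (minus strand, Fcgr1), chr1:170976072-170976321 (minus strand, Fcgr2b), chr1:171059404-171059653 (minus strand, the first of 2 entries of Fcgr3) and chr1:171018676-171018925 (plus strand, Fcgr4).
Fcgr1: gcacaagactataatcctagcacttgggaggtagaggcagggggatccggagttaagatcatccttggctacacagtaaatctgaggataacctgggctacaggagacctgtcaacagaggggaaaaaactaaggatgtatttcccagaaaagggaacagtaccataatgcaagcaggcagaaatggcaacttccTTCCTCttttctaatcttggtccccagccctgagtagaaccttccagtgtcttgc
Fcgr2b: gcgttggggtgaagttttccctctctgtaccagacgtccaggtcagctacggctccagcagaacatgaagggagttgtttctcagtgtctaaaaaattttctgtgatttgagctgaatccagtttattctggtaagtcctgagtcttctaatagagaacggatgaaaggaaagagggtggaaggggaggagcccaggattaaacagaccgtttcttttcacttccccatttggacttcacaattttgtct
Fcgr3: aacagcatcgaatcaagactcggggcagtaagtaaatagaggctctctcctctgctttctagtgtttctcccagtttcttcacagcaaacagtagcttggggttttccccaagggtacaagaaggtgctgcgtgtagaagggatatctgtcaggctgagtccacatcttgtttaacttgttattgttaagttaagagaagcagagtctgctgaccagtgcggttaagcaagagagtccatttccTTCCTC
Fcgr4: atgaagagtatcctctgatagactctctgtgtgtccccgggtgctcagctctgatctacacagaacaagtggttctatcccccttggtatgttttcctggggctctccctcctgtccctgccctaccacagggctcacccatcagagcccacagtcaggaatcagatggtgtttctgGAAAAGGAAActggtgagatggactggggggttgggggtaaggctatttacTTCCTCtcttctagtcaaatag
The PU-box core lay 49, 0 and 16 bases before the start of Fcgr1, Fcgr3 and Fcgr4, and the inhibitory Fcgr2b had neither motif in its window. Among all 10 members, 6 had the PU-box core (Fcgr1, Fcgr3, Fcgr4, Fcer1a, Fcrl1 and Fcmr), against 23.3% of 32851 promoter windows of the same length. The ISRE core was found in 1 member, Fcgr4, and in 2.98% of all windows. A match says only that the letters are there, and the motifs were searched with the levels of these genes already known.

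Fcgr2b and Fcgr3 share sequence that can blur the counting. Of the 50-base windows of Fcgr3-201, 12.8% also occur in a protein-coding transcript of Fcgr2b. Of those of Fcgr2b-201, 4.75% occur in a protein-coding transcript of Fcgr3. No other pair among Fcgr1, Fcgr2b, Fcgr3, Fcgr4, Fcrl1 and Fcrl5 shared such a window. The longest shared stretch has 129 bases, coding in both genes, at transcript positions 402 to 530 of Fcgr2b-201 and 313 to 441 of Fcgr3-201, and a read inside it cannot be told apart:
Fcgr2b and Fcgr3: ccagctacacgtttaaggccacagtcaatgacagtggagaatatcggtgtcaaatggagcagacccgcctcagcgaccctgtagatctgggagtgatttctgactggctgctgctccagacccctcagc
The counts bound how far either gene was counted as the other, but not reads lost from both. B-like cells held 8011, 6683 and 5372 UMIs of Fcgr2b beside 76, 31 and 29 of Fcgr3, or 0.949, 0.464 and 0.540 per 100. NK-like cells (natural killer) showed the reverse, with 7, 6 and 8 UMIs of Fcgr2b beside 327, 455 and 319 of Fcgr3.

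**Figure D1:**
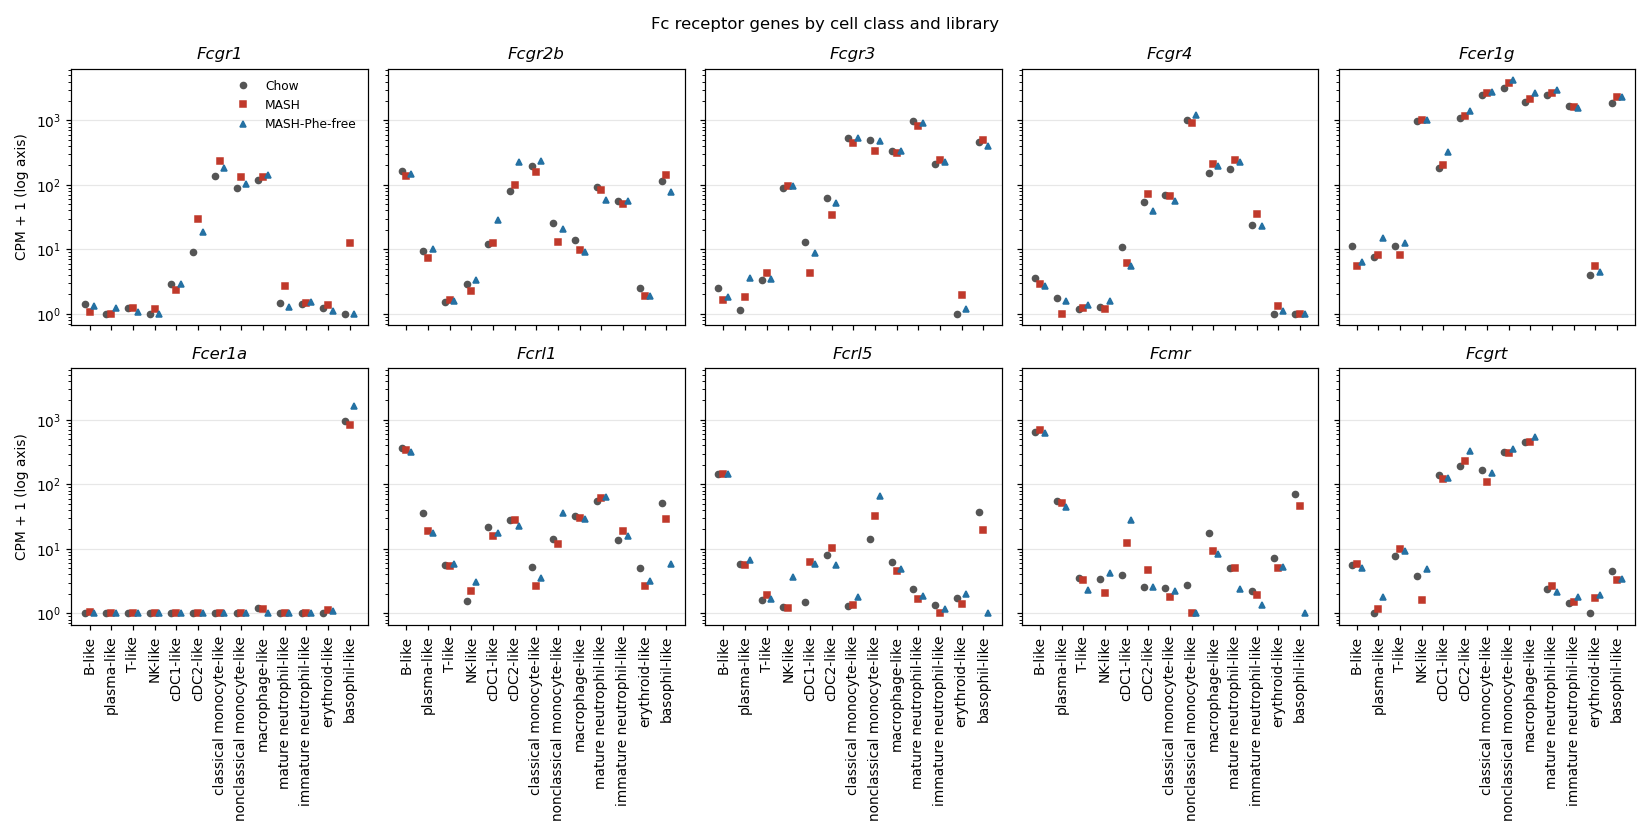
Level of each of the 10 genes (CPM + 1, log axis) by cell class, with 1 point per library for Chow, MASH and MASH-Phe-free. Fcgr4 peaks in nonclassical monocyte-like cells at 923 to 1208 CPM, and Fcer1a reaches 1635 CPM in basophil-like cells and lies under 1 CPM in every other class.

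Among the 12 compared classes, the activating receptor genes led in different ones. Fcgr3, which encodes the low-affinity activating receptor, was highest in mature neutrophil-like cells, at 983, 822 and 896 CPM. It followed in classical monocyte-like cells (526, 447 and 527 CPM), nonclassical monocyte-like cells (490.3, 336 and 472 CPM) and macrophage-like cells (338, 313 and 332 CPM). The neutrophil values lay above those of every other class in all 3 libraries, while the ranges of the monocyte classes overlapped. Basophil-like cells, too few to be compared, held 463, 503 and 399 CPM. NK-like cells, which use this receptor for antibody-dependent killing, held 89.4, 94.0 and 93.5 CPM.

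Fcgr4 was highest in nonclassical monocyte-like cells, the patrolling monocytes marked by Ace and Treml4, at 1003, 923 and 1208 CPM. Mature neutrophil-like cells (174, 244 and 224 CPM) and macrophage-like cells (153, 207 and 194 CPM) came next with overlapping ranges, and classical monocyte-like cells held 68.7, 65.4 and 55.2 CPM. Nonclassical monocyte-like cells carried 42.6%, 23.5% and 32.6% of all Fcgr4 UMIs, from only 174, 107 and 171 cells. After each cell was thinned to 5293 UMIs, 88.2% [82.0–92.9], 88.2% [80.4–93.8] and 92.7% [87.3–96.3] of them had an Fcgr4 UMI (93.1%, 94.4% and 94.2% unthinned), against at most 0.162% of T-like cells at that depth.

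Fcgr1, which encodes the high-affinity IgG receptor, was held by monocytes and macrophages. Classical monocyte-like cells had 134, 229 and 181 CPM, macrophage-like cells 119, 131 and 141 CPM, and nonclassical monocyte-like cells 86.7, 132 and 102 CPM. Mature neutrophil-like cells, rich in Fcgr3 and Fcgr4, held 0.448, 1.66 and 0.278 CPM. Among classical monocyte-like cells thinned to 10222 UMIs, 70.2% [65.2–74.8], 80.7% [76.6–84.4] and 75.5% [72.0–78.8] had an Fcgr1 UMI. Unthinned, these shares were 74.6%, 89.6% and 80.9%, and T-like cells at the same depth had at most 0.412%.

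Among the compared classes, Fcgr2b, the inhibitory gene, was high in B-like and classical monocyte-like cells, and in cDC2-like cells of MASH-Phe-free. B-like cells held 70.2%, 67.9% and 47.8% of its UMIs, at 161, 136 and 148 CPM, and classical monocyte-like cells were at 198, 159 and 229 CPM. In cDC2-like cells it was at 78.9, 99.1 and 223 CPM, with MASH-Phe-free far above the other libraries. Mature neutrophil-like cells had 92.8, 83.2 and 56.2 CPM and immature ones 56.0, 48.7 and 54.8 CPM. Macrophage-like cells had 12.8, 8.88 and 7.99 CPM and nonclassical monocyte-like cells 24.9, 11.8 and 19.7 CPM, so the classes led by macrophage and nonclassical monocyte markers had little of it. T-like and NK-like cells stayed under 3 CPM. Basophil-like cells, too few to be compared, held 75.3 to 140 CPM.

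UMIs of Fcgr1, Fcgr3 and Fcgr4 together over those of Fcgr2b give a ratio of activating to inhibitory transcripts, which does not depend on the scaling to CPM. It was 0.0281, 0.0190 and 0.0190 in B-like cells. In classical monocyte-like cells it was 3.68 [3.46–3.90], 4.68 [4.41–4.96] and 3.32 [3.18–3.47], and in immature neutrophil-like cells 4.12 [3.74–4.55], 5.61 [4.54–6.99] and 4.49 [4.18–4.83]. Mature neutrophil-like cells stood at 12.5 [10.8–14.4], 12.8 [11.3–14.7] and 19.9 [17.3–23.0], and cDC2-like cells at 1.55 [1.26–1.92], 1.35 [1.15–1.57] and 0.480 [0.415–0.555]. The highest ratios among phagocytes, in macrophage-like cells (47.6, 73.3 and 83.4) and nonclassical monocyte-like cells (63.6, 118 and 90.5), rest on few Fcgr2b UMIs (60, 52 and 48, and 43, 13 and 28). In macrophage-like cells Fcgr2b was at 8.00%, 6.53% and 5.41% of its B-like level, and the B markers at 8.45%, 6.77% and 6.49% of theirs. For nonclassical monocyte-like cells these values were 15.5%, 8.68% and 13.3% for Fcgr2b and 0.858%, 0.601% and 0.849% for the B markers. The part of RNA from B cells in these ratios was not tested. The receptor genes may be captured unequally, so the ratio was compared only between classes and libraries.

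**Figure D2:**
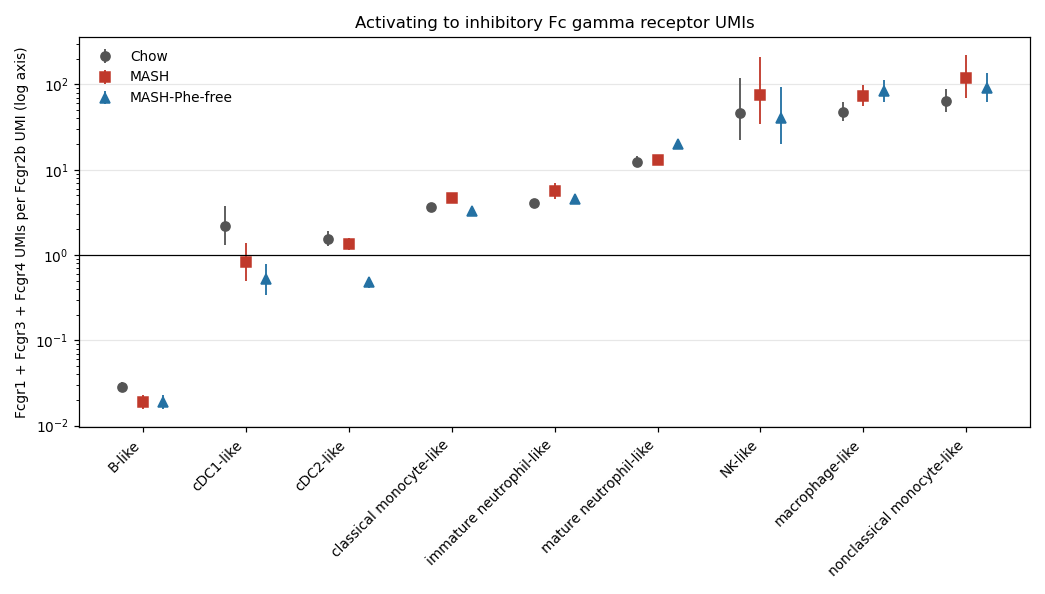
UMIs of Fcgr1, Fcgr3 and Fcgr4 per UMI of Fcgr2b (log axis) by class, with 1 point per library and exact 95% counting intervals. B-like cells lie lowest, nonclassical monocyte-like cells lie between 63.6 and 118, and the cDC2-like class goes from 1.35 in MASH to 0.480 in MASH-Phe-free.

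Fcer1g, the shared gamma chain, was high in every class with much activating receptor and reached further. It was 3226, 3779.7 and 4184 CPM in nonclassical monocyte-like cells, 2438, 2679 and 2913 CPM in mature neutrophil-like cells, 2469, 2611 and 2709 CPM in classical monocyte-like cells and 1927, 2173 and 2641 CPM in macrophage-like cells. NK-like cells held 970.1, 1008 and 1019.8 CPM. In cDC1-like cells (dendritic cells of type 1), which had under 12 CPM of each activating receptor gene, it was 181, 203 and 319.8 CPM. B-like, T-like, plasma-like and erythroid-like cells had under 14 CPM.

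Fcer1a was a basophil gene here. Basophil-like cells held 544, 358 and 673 of its UMIs, or 99.6%, 98.6% and 99.4% of all. Its levels there were 954 [875–1037], 837 [752–928] and 1635 [1514–1764] CPM from 46, 40 and 34 cells, so MASH-Phe-free lay above both other libraries beyond counting error. Ms4a2, which encodes the beta chain of the same receptor, was at 1379.6 [1285–1479.5], 1393 [1283–1509.5] and 1309.8 [1202–1425] CPM in the same cells, with overlapping intervals. The class was under 50 cells in each library and was not compared further. The 10 B markers summed to 1989.7, 891 and 87.5 CPM and the basophil markers to 21331, 28472 and 52017 CPM in it, and their part in the Fcer1a difference was not tested.

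Fcgrt, which recycles IgG, was highest in macrophage-like cells, at 444, 460.1 and 542 CPM, and these held 38.2%, 44.3% and 41.5% of its UMIs. Nonclassical monocyte-like cells had 313, 302 and 347 CPM, cDC2-like cells 192, 229 and 324 CPM, classical monocyte-like cells 165, 106 and 151 CPM and cDC1-like cells 138, 119.6 and 122 CPM. Both neutrophil classes had under 2 CPM, and B-like cells had 4.51, 4.78 and 4.12 CPM.

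The B-cell members differed between the B-like subsets, which were named from their own marker lists. Fcrl5 was highest in B1-like cells, at 358, 372 and 333 CPM, and next in marginal zone B-like cells, at 198, 199.8 and 201 CPM. Follicular B-like cells (18.7, 14.6 and 22.05 CPM) and transitional B-like cells (12.0, 15.9 and 9.39 CPM) lay far below in each library. After thinning to 6578 UMIs, 76.1%, 73.9% and 70.7% of B1-like cells had an Fcrl5 UMI (80.5%, 78.3% and 77.1% unthinned), against at most 0.327% of T-like cells. Germinal centre B-like cells stood between, at 61.3, 104 and 70.6 CPM. Fcrl1 had another order, with follicular B-like cells highest at 438, 391 and 372 CPM, transitional and marginal zone B-like cells at 378, 372 and 344 and 363, 364 and 327 CPM, B1-like cells at 303, 276 and 266 CPM and germinal centre B-like cells at 173, 171 and 184 CPM.

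Fcmr was highest in B1-like cells (1036, 1221 and 1061 CPM), followed by follicular (921, 964 and 889.9 CPM) and transitional B-like cells (857, 904 and 889 CPM), whose ranges overlapped. Marginal zone B-like cells held 373, 416 and 377 CPM. Fcgr2b was highest in marginal zone B-like cells (187, 165 and 176 CPM) and lowest in germinal centre B-like cells (57.0, 82.3 and 90.8 CPM). In plasma-like cells, the antibody-secreting stage, Fcgr2b was at 8.50, 6.40 and 9.08 CPM and Fcmr at 54.4, 50.4 and 43.6 CPM. Both were far under the B-like level, at 5.29%, 4.71% and 6.15% of it for Fcgr2b and 8.45%, 7.35% and 7.11% for Fcmr. The B markers were low there too, at 16.1%, 14.2% and 14.2% of their B-like level.

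**Figure D3:**
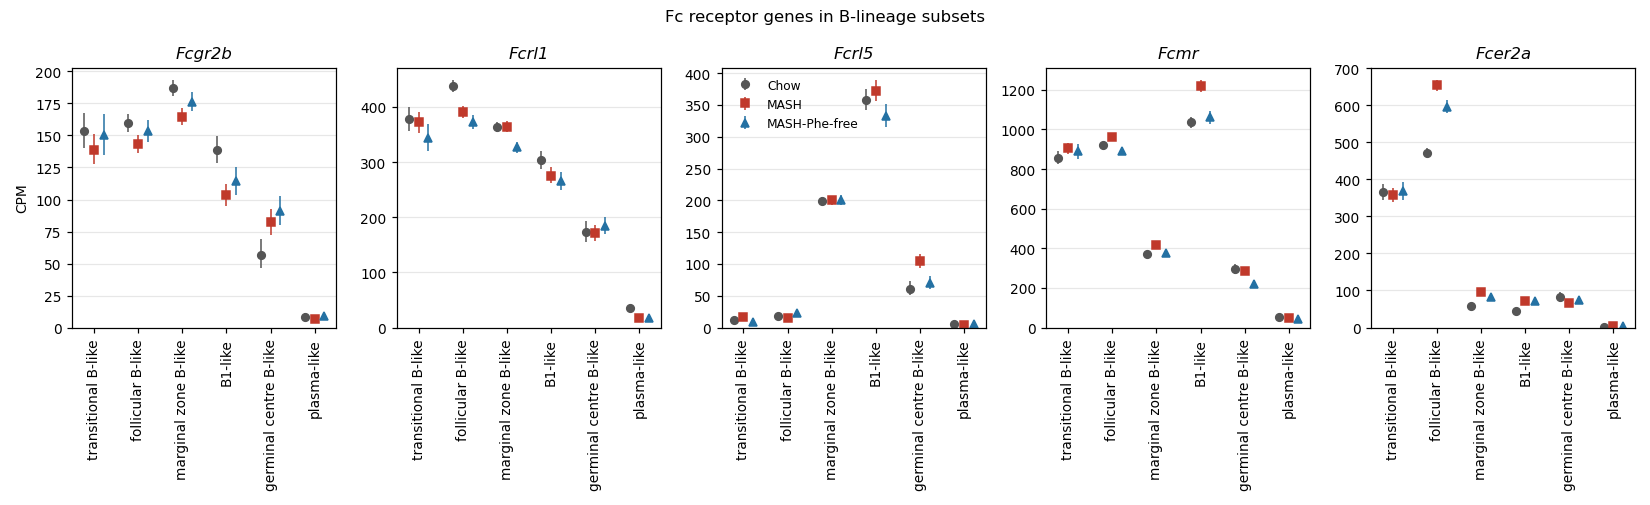
Levels (CPM) of B-lineage Fc receptor genes in B-like subsets and plasma-like cells, with exact 95% counting intervals and 1 point per library. Fcrl5 is highest in B1-like cells (333 to 372 CPM), and Fcmr is higher in B1-like and follicular B-like than in marginal zone B-like cells.

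MASH was first set against Chow. A gene was called in a class when the ratio was at least 1.5-fold either way, its interval left out 1, both libraries together held at least 20 UMIs and the higher one at least 10 CPM. Of 56 pairs of a member and a class that could be compared, 5 were higher in MASH and 7 lower, or 8.93% and 12.5%, beside 3.56% and 5.77% of all pairs of a gene and a class. Only 4 of the 12 calls had at least 50 CPM in either library, a limit set after the values were seen: Fcgr1 in both monocyte classes, Fcgrt in classical monocyte-like cells and Fcgr3 in cDC2-like cells.

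Fcgr1 was higher in MASH in classical monocyte-like cells, with 936 and 2036 UMIs in Chow and MASH, a ratio of 1.71 [1.59–1.85]. In that class 2.45% of genes were called higher. It stayed called in all 11 alternative settings that gave a value, between 1.69 and 2.05. In nonclassical monocyte-like cells the ratio was 1.52 [1.2002–1.92], where 3.18% of genes were called higher, and the call was lost at a coarser clustering and with mixed cells kept. In cDC2-like cells it was 3.61 [2.07–6.73], on 15 and 85 UMIs in a class with 4.11% of genes called higher, and 1.12 without cells that held 4 markers of another class. Macrophage-like cells, the other main holder of Fcgr1, gave 1.10 [0.983–1.23] and were not called.

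The other Fc gamma receptor genes of classical monocyte-like cells were not called. Fcgr2b was at 0.801 [0.743–0.863], Fcgr3 at 0.851 [0.813–0.890] and Fcgr4 at 0.952 [0.842–1.08] of the Chow level, and Fcer1g at 1.06 [1.04–1.08]. The activating to inhibitory ratio of the class was 1.27-fold [1.17–1.38] that of Chow, with an interval from a normal approximation on the log scale. Fcgrt was lower in MASH in this class, at 0.644 [0.590–0.702], where 3.2% of genes were called lower, and stayed called in 6 of 11 alternatives, with ratios up to 0.874. The 12 macrophage markers summed to 1031, 686 and 1089.6 CPM in classical monocyte-like cells and the 10 mature neutrophil markers, which include S100a8 and S100a9, to 323, 715 and 427 CPM, all of them with UMIs. The 9 nonclassical monocyte markers summed there to 1273, 944 and 749 CPM. The part of these 3 marker lists in the differences of Fcgr1 and Fcgrt was not tested.

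Fcgr4 was higher in MASH without reaching the call in its large phagocyte classes: 1.35 [1.23–1.49] in macrophage-like, 1.40 [1.24–1.59] in mature neutrophil-like and 1.47 [1.11–1.93] in immature neutrophil-like cells (96 in MASH). In mature neutrophil-like cells Fcgr3 was at 0.837 [0.790–0.886] and Fcgr2b at 0.897 [0.743–1.08], and the median log2 ratio over all genes, with 10 CPM added to each level, was -0.13. Nonclassical monocyte-like cells had less Fcgr3 in MASH, at 0.685 [0.605–0.775], and Fcgr4 at 0.920 [0.850–0.994], neither called. Fcgr2b in these cells was called lower, at 0.475 [0.234–0.900], on 43 and 13 UMIs, where 4.29% of genes were called lower. When each library was clustered on its own, that class held 301 MASH cells in place of 107 and the Fcgr2b ratio turned to 5.62.

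**Figure D4:**
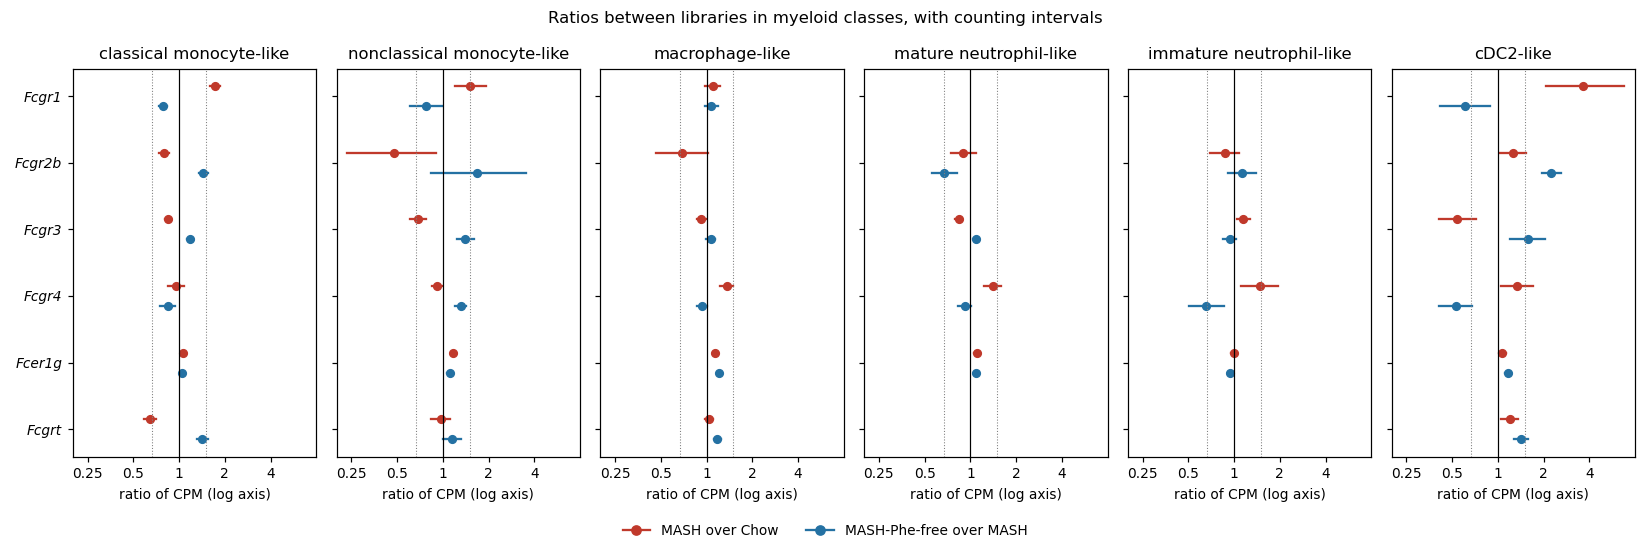
Ratio of CPM between libraries (log axis) for members in myeloid classes, MASH over Chow and MASH-Phe-free over MASH, with exact 95% counting intervals. Both comparisons use the MASH library. Fcgr1 in classical monocyte-like cells lies at 1.71 and 0.789.

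MASH-Phe-free was compared with MASH next. Both comparisons share the MASH library, so opposite signs in them are not independent. Of 52 pairs 9 were higher in MASH-Phe-free and 3 lower, or 17.3% and 5.77%, beside 3.79% and 2.54% of all pairs of a gene and a class. Of the 12 calls, 5 had at least 50 CPM: Fcgr2b, Fcgr3 and Fcgr4 in cDC2-like cells, Fcer1g in cDC1-like cells and Fcrl5 in nonclassical monocyte-like cells. No member was called in classical monocyte-like, macrophage-like, mature neutrophil-like, NK-like or B-like cells.

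In classical monocyte-like cells Fcgr1 was at 0.789 [0.741–0.839] of MASH, which left it above Chow (181 against 134 CPM). Fcgr2b was 1.45-fold [1.36–1.54], Fcgrt 1.42-fold [1.31–1.54] and Fcgr3 1.18-fold [1.13–1.23] of MASH, short of the call. The activating to inhibitory ratio was 0.711-fold [0.661–0.764] that of MASH. In mature neutrophil-like cells Fcgr2b was at 0.676 [0.559–0.817], also short of the call, and the activating to inhibitory ratio was 1.55-fold [1.28–1.88] that of MASH, where the median log2 ratio over all genes was 0.12. Macrophage-like cells had Fcer1g at 1.22-fold [1.19–1.24] and Fcgrt at 1.18-fold [1.12–1.24] of MASH, and Fcgr1, Fcgr3 and Fcgr4 at 1.07, 1.06 and 0.933. Nonclassical monocyte-like cells had Fcgr4 at 1.31-fold [1.21–1.42] (1.5002-fold and called without a part led by Ccl5 and Ncr1) and Fcgr3 at 1.40-fold [1.24–1.60] of MASH.

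The cDC2-like class held several of the larger calls and was made mainly of 4 clusters, 2 led by H2-M2 and 2 by Cd209a or Cd209d. The one led by Cd209a, Mgl2, Retnla and Cd209c held only 19, 31 and 49 cells. It carried 10 of 15, 73 of 85 and 38 of 46 Fcgr1 UMIs of the class, at 25.9 [12.4–47.7], 116 [90.9–146] and 48.5 [34.3–66.6] CPM. It also led in Fcgr2b, at 290.3 [239–349], 305 [263–351] and 554 [503–609] CPM, and in Fcgr3, at 194, 103 and 133 CPM. Fcgr4 instead was highest in the cluster led by H2-M2 and Ppp1r14a, at 93.5, 142 and 118 CPM from 287, 456 and 201 cells. The cluster led by Cd209d had Siglech, a plasmacytoid dendritic cell marker, among its leading genes. Before mixed cells were set aside it held 7, 10 and 41 cells, at a median of 16750 UMIs. Plasmacytoid dendritic cell markers came second to cDC2 markers in it (mean log2 fold 3.06 and 4.69). Its part in the calls was not tested.

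Over the whole cDC2-like class, Fcgr2b was 2.25-fold [1.950–2.60] and Fcgr3 1.57-fold [1.198–2.06] of MASH in MASH-Phe-free, Fcgr1 was at 0.609 [0.416–0.882] and Fcgr4 at 0.528 [0.412–0.674]. In that class 5.72% of genes were called higher and 5.14% lower. The 9 classical monocyte markers summed to 1136, 1678 and 2030.4 CPM in cDC2-like cells, 9 of 9 with UMIs, beside 1618, 1725 and 1943 CPM for the 9 cDC2 markers. The part of these markers in the calls was not tested. The Cd209a and Mgl2 cluster made up 31 of 606 cells in MASH and 49 of 365 in MASH-Phe-free. Before mixed cells were set aside, its median was 18280 UMIs, against 1357 in the cluster led by H2-M2 and Ppp1r14a. These shares of cells therefore understate its share of the class's UMIs, on which the levels rest. With clusters weighted alike in both libraries, Fcgr2b was 1.73-fold, Fcgr3 1.503-fold, Fcgr1 0.493-fold and Fcgr4 0.752-fold of MASH, the last no longer a call. Between MASH and Chow, Fcgr3 was at 0.542 [0.409–0.717] (3.88% of genes called lower), and weighted alike Fcgr1 was 3.35-fold and Fcgr3 0.510-fold of Chow. When each library was clustered on its own, the class held 837 MASH-Phe-free cells in place of 365, and Fcgr2b, at 1.37-fold, was no longer called. Fcgr3 turned to 0.710 in the same setting, and Fcgr1 to 1.33 with every cell weighted alike. The Fcgr3 difference between MASH and Chow stayed called in 7 of 11 alternatives.

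**Figure D5:**
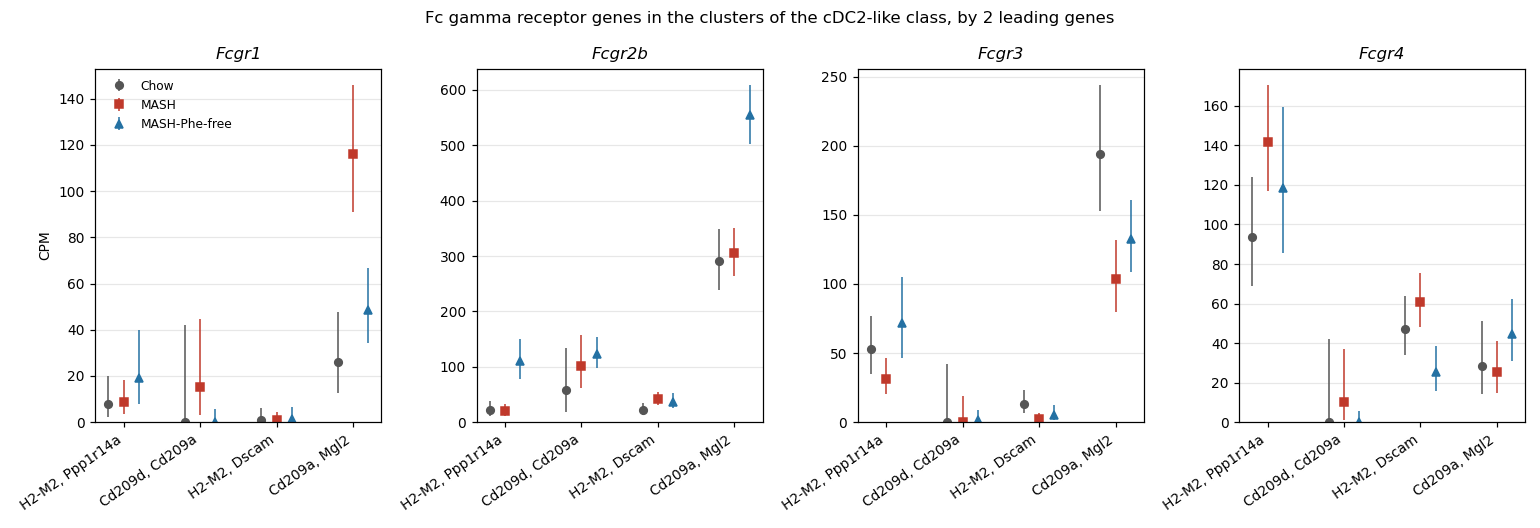
Levels (CPM) of the 4 Fc gamma receptor genes in the clusters of the cDC2-like class, named by leading genes, with exact 95% counting intervals and 1 point per library. The cluster led by Cd209a and Mgl2 stands highest for Fcgr1 and Fcgr2b, and the cluster led by H2-M2 and Ppp1r14a for Fcgr4.

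Fc receptor-like genes were also counted outside the B lineage. Mature neutrophil-like cells held Fcrl1 at 54.3, 60.7 and 63.5 CPM from 121, 183 and 228 UMIs, which is 14.7%, 18.0% and 19.97% of the level in B-like cells. The 10 B markers, all with UMIs in each library, summed there to 0.757%, 0.729% and 0.607% of their B-like level. After thinning to 2611 UMIs, 11.5% [8.84–14.5], 11.2% [8.88–13.9] and 13.8% [11.6–16.3] of mature neutrophil-like cells had an Fcrl1 UMI (17.0%, 19.5% and 19.5% unthinned), against 0.733%, 0.827% and 1.08% of T-like cells. Its ratios were 1.12 [0.884–1.42] for MASH over Chow and 1.05 [0.858–1.28] for MASH-Phe-free over MASH, both intervals holding 1.

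Fcrl5 in nonclassical monocyte-like cells was at 13.3, 30.9 and 64.7 CPM from 23, 34 and 92 UMIs. The ratios, 2.32 [1.33–4.13] for MASH over Chow and 2.10 [1.40–3.20] for MASH-Phe-free over MASH, were both called, the second beside 3.28% of genes called higher in the class. The first turned to 0.510 when each library was clustered on its own, and the second was lost with a stricter cell filter and with a marker gate on each cell. One part of the class, with 28, 22 and 37 cells, was led by Ccl5, Il2rb, Klrc1 and Ncr1, had 3 NK markers among its 20 leading genes and listed Fcrl5 among its first 10. Without it, an alternative chosen after seeing the data, the ratios were 1.27, no longer called, and 4.71. NK markers summed to 7.52, 105 and 2.81 CPM in the whole class, and their part was not tested. Thinned to 5293 UMIs, 4.58% [1.86–9.20], 8.82% [4.11–16.1] and 14.6% [9.36–21.2] of these cells had an Fcrl5 UMI (6.90%, 14.02% and 16.4% unthinned), against at most 0.246% of T-like cells, and the intervals of neighbouring libraries overlap. Fcrl1 was 3.23-fold [1.69–6.66] of MASH in MASH-Phe-free in the same class. B markers summed there to 0.858%, 0.601% and 0.849% of their B-like level, with Blk and Ly6d at 0 in MASH and MASH-Phe-free, while Fcrl5 reached 9.38%, 21.5% and 45.03% of its own.

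The remaining calls were of genes at low levels or in classes whose other markers differed too. In cDC1-like cells Fcmr was at 2.86, 11.4 and 26.7 CPM, and the B markers there summed to 92.5, 253 and 523 CPM. Fcer1g in the same class was 1.57-fold [1.42–1.75] and Fcgr2b 2.31-fold [1.53–3.55] of MASH in MASH-Phe-free, and mature neutrophil markers there summed to 103, 148 and 398 CPM. Fcer1g was lower in B-like cells of MASH at 0.441 [0.375–0.517], with levels of 10.3, 4.56 and 5.47 CPM and macrophage markers at 88.1, 34.0 and 39.4 CPM. It was higher in T-like and plasma-like cells of MASH-Phe-free, at 1.58 [1.30–1.92] and 1.97 [1.38–2.84], with neutrophil markers at 58.2, 18.1 and 77.9 CPM in T-like and 27.5, 7.36 and 90.8 CPM in plasma-like cells. Fcmr was lower in macrophage-like cells of MASH at 0.504 [0.344–0.733], with levels of 16.3, 8.20 and 7.33 CPM and B markers at 1030.3, 849 and 806 CPM. Fcgr3 in cDC1-like cells of MASH was at 0.273 [0.117–0.588] on 25 and 10 UMIs, and Fcgr4 in immature neutrophil-like cells of MASH-Phe-free at 0.654 [0.506–0.856]. The part of the markers in the calls beside them was not tested. Among all genes of the same classes, the shares called in MASH were 0.956% lower in B-like, 9.85% lower in macrophage-like, and 6.71% higher and 3.22% lower in cDC1-like cells. In MASH-Phe-free they were 6.49% higher in cDC1-like, 0.349% higher in T-like, 7.06% higher in plasma-like and 4.45% lower in immature neutrophil-like cells. Each of these calls was lost in some other settings. In B-like cells Fcer1g was still called in 3 of 12 alternatives, with ratios from 0.182 to 1.26. The highest of these came without 1 B-like part led by the pancreatic enzyme genes Ctrb1 and Prss2, which held 265, 7 and 18 cells and 4 macrophage markers among its leading genes. The MASH-Phe-free calls of Fcer1g stood in 4 of 12 for cDC1-like, 7 of 12 for T-like and 5 of 12 for plasma-like cells, and those of Fcmr and Fcgr2b in cDC1-like cells in 6 of 12 and 7 of 12. In 1 alternative each, Fcer1g was called lower instead in cDC1-like and plasma-like cells, with ratios down to 0.650 and 0.406. For MASH over Chow, Fcgr3 and Fcmr in cDC1-like cells were called in 4 of 12 and 5 of 12, and Fcmr in macrophage-like cells in 8 of 12. Fcgr4 in immature neutrophil-like cells of MASH-Phe-free was called in 7 of 11.

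In the B-like class the B-cell members were not called. MASH over Chow gave 0.847 [0.820–0.875] for Fcgr2b, 0.913 [0.894–0.932] for Fcrl1, 1.02 [0.983–1.05] for Fcrl5 and 1.07 [1.05–1.08] for Fcmr, and MASH-Phe-free over MASH gave 1.09, 0.944, 0.998 and 0.895. Fcrl1 was lower in plasma-like cells of MASH, at 0.511 [0.403–0.644], with levels of 34.8, 17.8 and 16.7 CPM, in a class where 11.2% of genes were called lower. Among subsets, germinal centre B-like cells had more Fcrl5 in MASH, at 1.70 [1.37–2.13], with 113 and 330 UMIs and 3.45% of genes called higher. It was called in 7 of 9 alternatives, with a lowest ratio of 1.31, and was lost with a stricter cell filter and a coarser clustering. NK markers summed there to 22.2, 60.1 and 9.78 CPM, and their part was not tested. In the same subset Fcgr2b was at 1.44 [1.15–1.83], short of the call. Fcgrt in follicular B-like cells was called at 1.70 [1.28–2.26], but at 6.48, 11.0 and 7.70 CPM, and after thinning to 5172 UMIs its shares of cells (3.49%, 6.32% and 3.71%) stood beside 2.93%, 3.63% and 2.94% of T-like cells. Calls below 25 CPM in subsets were also made for Fcer1g in B1-like cells (1.86 and then 0.428) and, for MASH-Phe-free over MASH, for Fcrl5 in follicular (1.51) and transitional B-like cells (0.590). The shares of all genes called in MASH were 1.11% higher in follicular and 2.36% higher in B1-like cells, and in MASH-Phe-free 0.519% higher in follicular, 2.48% lower in transitional and 2.05% lower in B1-like cells.

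Other Fc receptor and Fc receptor-like genes gave 14 comparable pairs for MASH over Chow, of which 3 were higher and 1 lower, beside 3.56% and 5.77% of all pairs. Fcer2a, the low-affinity IgE receptor CD23 of B cells, was at 1.26 [1.23–1.30] in B-like cells and not called there. By subset, chosen after the values were seen, it was called higher in marginal zone B-like cells at 1.66 [1.53–1.80] and in B1-like cells at 1.59 [1.34–1.89], and was at 1.39 [1.34–1.43] in follicular B-like cells. Trim21, a cytosolic antibody receptor, made up the 3 higher pairs, at 1.78 [1.06–3.01] in nonclassical monocyte-like, 1.66 [1.05–2.70] in mature neutrophil-like and 1.63 [1.06–2.58] in cDC2-like cells. The lower one was Fcrla, an intracellular family member of B cells, at 0.5001 [0.332–0.746] in macrophage-like cells. For MASH-Phe-free over MASH, 2 of 16 pairs were higher and 0 lower, beside 3.79% and 2.54% of all pairs: Fcer2a in cDC2-like cells at 6.62 [3.10–16.2] and Fcrla in cDC1-like cells at 3.19 [1.89–5.61].

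Signalling genes downstream of the receptors were counted next, beside the shares of all pairs given above (3.56% higher and 5.77% lower in MASH, 3.79% and 2.54% in MASH-Phe-free). Of 131 pairs of the activating list (kinases and adaptors such as Syk and Btk) 1 was higher and 6 lower in MASH. Of these 6, 4 were in erythroid-like cells, where 15.2% of all genes were called lower and no member could be compared. Of 60 pairs of the inhibitory list (phosphatases and Dok adaptors) 4 were higher and 2 lower in MASH. For MASH-Phe-free over MASH the counts were 1 higher and 0 lower of 128 activating pairs, and 2 higher and 1 lower of 61 inhibitory pairs. In classical monocyte-like cells no gene of either list was called in either comparison. The median log2 ratio there for MASH over Chow was -0.01 for 13 activating and 0.09 for 6 inhibitory genes, beside -0.03 over all genes. For MASH over Chow the activating genes farthest apart by log2 ratio, with 10 CPM added to each level, were Lat, also a T marker, in cDC1-like cells (0.114 [0.0344–0.296]), Gab2 in erythroid-like cells (0.402 [0.342–0.473]) and Vav1 in nonclassical monocyte-like cells (0.619 [0.488–0.779]), and the 1 call for MASH-Phe-free over MASH was Btk in erythroid-like cells (1.62 [1.45–1.81]). Among inhibitory genes Dok2 in macrophage-like cells was at 2.52 [1.93–3.32] and then 0.417 [0.326–0.529], with levels of 15.8, 40.0 and 16.7 CPM. Dok3 in cDC2-like cells was at 0.351 [0.211–0.573] and then 1.83 [1.11–3.08], and Ptpn6, which encodes the phosphatase SHP-1, at 1.69 [1.46–1.958] in NK-like cells of MASH.

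Among 24 pairs of partner chains, the only call in MASH was Cd247, a relative of the gamma chain, in macrophage-like cells at 0.191 [0.108–0.324]. Among 25 pairs, the only call in MASH-Phe-free was Tyrobp in plasma-like cells at 3.14 [2.23–4.52]. In macrophage-like cells NK markers summed to 88.4, 17.3 and 7.33 CPM and T markers to 81.8, 45.8 and 30.3 CPM. Their part in the Cd247 value was not tested. Other receptors that use the common gamma chain gave 2 higher and 1 lower of 15 pairs in MASH, and 1 higher and 2 lower of 14 in MASH-Phe-free. Over all pairs the shares were 3.56% and 5.77%, and 3.79% and 2.54%. Clec4d, a lectin receptor of myeloid cells and 1 of the mature neutrophil markers, was at 3.21 [2.58–3.99] and then 0.490 [0.409–0.590] in immature neutrophil-like cells, and Clec4n, the receptor Dectin-2, at 2.40 [1.75–3.33] in nonclassical monocyte-like cells of MASH-Phe-free. Ncr1, an NK receptor, had 30 UMIs in nonclassical monocyte-like cells of MASH and 0 in those of Chow and MASH-Phe-free. NK markers, of which Ncr1 is 1, summed there to 7.52, 105 and 2.81 CPM. For the oxidase that phagocytes use after Fc receptor contact, 1 of 64 pairs was higher and 3 lower in MASH, and 4 of 66 higher and 1 lower in MASH-Phe-free, beside the same shares over all pairs. Its catalytic gene Cybb was at 0.564 [0.521–0.611] in plasma-like cells of MASH and 2.35 [1.74–3.20] in cDC1-like cells of MASH-Phe-free. Ncf4, a cytosolic subunit, was at 3.95 [2.22–7.76] and then 0.168 [0.120–0.229] in erythroid-like cells. Cyba, a membrane subunit, was at 0.524 [0.410–0.674] in erythroid-like cells of MASH, and Rac2, a GTPase of the complex, at 1.60 [1.45–1.77] in cDC1-like cells of MASH-Phe-free. The erythroid-like class was made of different parts in the 3 libraries: 3 parts led by Xpo7, Cdkn2d and Tent5c held 130, 112 and 125 MASH cells, against 2, 1 and 0 in Chow and 9, 19 and 8 in MASH-Phe-free. The part of this in the erythroid-like calls, those of Ncf4, Cyba, Gab2 and Btk among them, was not tested.

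The genes most like each member over the 12 classes were found by Pearson's r of log2(CPM + 10), each class taken as the mean of the 3 libraries, among 7367 genes. The points are classes of the same libraries that differ in depth, so these values only describe. Fcer1g was most like Tyrobp (r = 0.98), another adaptor chain of myeloid and NK cells, then Rnasek (0.95) and Apobr (0.95). Fcmr was most like Ms4a1, above 0.99, with Fcrla at 0.99, and Fcrl5 most like Cd22 (0.93), Niban3 (0.86) and Ighd (0.86). Fcgr1 was most like Lrp1 (0.99), Ifi202b (0.98) and Cfb (0.98), and Fcgrt most like Tnfrsf11a (0.98), Nav1 (0.98) and Rasa4 (0.98). Fcgr3 was nearest to Rnasek (0.95), Rab31 (0.95) and Tmbim6 (0.93), and Fcgr4 to Atg4c (0.95), Cdc42ep2 (0.94) and Pilrb1 (0.93). Fcgr2b was nearest to B3gnt8 (0.88), Lrrk2 (0.84) and Ncf1 (0.78), and Fcrl1 to Sema7a (0.89), Swap70 (0.87) and Il12a (0.87).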

How the data were processed

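UMI counts per gene and barcode, raw and not normalized, were used as deposited for 3 mouse spleen libraries, 1 per group. Per the labels' protocols the libraries came from a Chromium 5′ kit. Per the submitters' processing notes, Cell Ranger 9.0.1 and Seurat 5.3.0 were used, with GRCm39. Cells needed 300 genes, 500 UMIs and at most 10% mitochondrial UMIs, and Scrublet marked 2.11%, 1.82% and 1.80% as doublets (13.2%, 15.4% and 13.4% by the usual loading rule), so doublets may remain. Clustering (scanpy 1.11.5, Python 3.11.15) used 2000 variable genes without Fc receptor genes, 30 components, 15 neighbours and resolution 1.0. By a rule set after seeing the clusters, a part of a class was set aside with at least 5 markers of another lineage among its 20 leading genes, or at least 3 where its median depth was not under the class median. The 4 shallower parts with 3 or 4 such markers stayed (1 B-like, 2 macrophage-like and 1 nonclassical monocyte-like), and leaving them out was an added alternative. UMIs were summed per class and library; intervals are exact Poisson (levels), conditional binomial (ratios) or Clopper-Pearson (shares), computed with scipy 1.17.1 and checked on simulated counts. They cover counting error only. Named genes were the 10 members, at most 3 called genes per pathway list and comparison with the largest log2 ratio (10 CPM added), and genes among the 3 most like each member (1 is not reported here). Members and lists were chosen with earlier results of these data known. Alternatives covered filters, doublets, clustering, marker gates, weighting, free RNA, scaling, minimums and the fold of a call.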

Additional observations from a re-analysis of the deposited data

How the results depend on the processing

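No paired analysis was possible because each group had 1 library. Of 1727 values recomputed under other settings, 1427 were counted as unchanged, 265 as moved and 35 as turned in direction. A ratio outside its counting interval was counted as moved even where it kept its side of 1. A turn of direction was counted only for called pairs, so uncalled pairs that changed sign are among the other values. The cause was not tested. The 12 calls for MASH over Chow became 19 when each library was clustered on its own, 3 without cells with 4 markers of another class (9 of 12 classes) and 6 at 2-fold. The 12 for MASH-Phe-free over MASH became 4 with a marker gate (11 of 12 classes), 7 with every cell weighted alike, 7 with doublets kept, 6 without cells with 4 such markers (10 of 12 classes), 20 with no minimum of UMIs or CPM and 5 at 2-fold. On the log2 scale, the activating to inhibitory difference in nonclassical monocyte-like cells became -3.18 (MASH over Chow) and 3.71 (MASH-Phe-free over MASH) with libraries clustered separately. For MASH-Phe-free over MASH it became -0.66 in classical monocyte-like cells without cells with 4 markers of another class and 0.32 in mature neutrophil-like cells with doublets kept. Without thinning, shares of cells with a UMI were 18.4%, 21.8% and 23.5% for Fcgr4 in macrophage-like cells, 80.5%, 78.3% and 77.1% for Fcrl5 in B1-like cells, and 89.6% (MASH) and 80.9% (MASH-Phe-free) for Fcgr1 in classical monocyte-like cells. Values that turned direction, as log2 ratios, follow. For MASH over Chow, Fcer1g in B-like cells was at 0.25 (coarser clustering), 0.13 (separate clustering), 0.048 (marker gate), 0.21 (doublets kept), 0.0073 (4-marker cells left out) and 0.33 (4 more parts left out). Fcgr2b in nonclassical monocyte-like cells was at 2.49 (separate clustering). Fcgr3 in cDC1-like cells was at 1.42 (separate clustering), 3.16 (marker gate), 0.53 (clusters weighted alike) and 0.39 (doublets kept). Fcmr in cDC1-like cells was at -0.43 (stricter filter), -0.031 (coarser clustering), -0.40 (cells weighted alike) and -0.11 (4-marker cells left out). Fcrl5 in nonclassical monocyte-like cells was at -0.97 (separate clustering). For MASH-Phe-free over MASH, Fcer1g in T-like cells was at -0.35 (separate clustering) and -0.38 (marker gate). Fcer1g in cDC1-like cells was at -0.51 (stricter filter), -0.25 (separate clustering), -0.62 (doublets kept) and -0.40 (4-marker cells left out). Fcer1g in plasma-like cells was at -1.30 (separate clustering), -0.65 (marker gate) and -0.33 (doublets kept). Fcgr1 in cDC2-like cells was at 0.42 (cells weighted alike). Fcgr2b in cDC1-like cells was at -0.27 (separate clustering). Fcgr3 in cDC2-like cells was at -0.49 (separate clustering). Fcmr in cDC1-like cells was at -1.92 (stricter filter), -1.47 (coarser clustering), -0.14 (separate clustering), -2.11 (marker gate) and -1.19 (4-marker cells left out). Fcrl5 in follicular B-like cells was at -0.014 (stricter filter). Fcrl5 in transitional B-like cells was at 0.45 (doublets kept). Keeping mixed parts of a class, an alternative chosen after seeing the data, turned the direction of no call. Leaving out 4 more parts, also chosen after seeing the data, gave 11 and 13 calls.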
